A study of Mus musculus with 12 samples.

Results

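The genes described here are 10 members of cytochrome P450 family 4, the fatty acid hydroxylases, in mouse liver and liver tumours. They are Cyp4a10, Cyp4a12a, Cyp4a12b, Cyp4a14, Cyp4a31, Cyp4a32, Cyp4b1, Cyp4f13, Cyp4f14 and Cyp4v3, chosen by gene name. All 10 are among the 34844 gene names of the array, with 14 probes between them, and all 10 were among the 26506 genes that passed the filter on dim probes. The arrays, 12 in number, were single-colour Agilent arrays hybridised with liver RNA of male mice of the mixed strain 129/SV/B6. Every animal had been injected at 2 weeks of age with 50 mg/kg diethylnitrosamine (DEN), a carcinogen that gives hepatocellular carcinoma (HCC). Poly(IC) followed 8 months after DEN. The animals were killed 1 week later, and by then 2 months had passed since they were irradiated and received a bone marrow transplant.

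There were 4 groups with 3 arrays each. Mx-liver and Mx-tumor were non-cancerous liver and HCC of mice without Mx-Cre, in which survivin, the product of Birc5, is wild type. Mx+liver and Mx+tumor were the same tissues of mice with Mx-Cre, in which survivin is described as deleted. Mx-Cre is switched on by interferon, which poly(IC) induces, and it acts in blood cells as well as in hepatocytes. The labels do not give the source of the transplanted marrow, do not name the allele that Cre cuts, and leave unsaid if each array stands for its own animal, so the p-values measure the spread between arrays, which may be in part technical.

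CYP4 enzymes add a hydroxyl group at or next to the methyl end of a fatty acid, the first step of omega-oxidation, and take their electrons from the reductase Por. The Cyp4a genes of the liver are textbook targets of the nuclear receptor PPAR-alpha, which fatty acids and fasting activate, and Cyp4a12a is expressed more in male than in female mice. CYP4F enzymes act on leukotrienes and other eicosanoids, Cyp4b1 is mainly a lung enzyme that activates protoxins, and Cyp4v3 is the mouse counterpart of a human gene mutated in a corneal and retinal dystrophy.

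Because the Cyp4a genes lie side by side and resemble each other, a probe of 1 gene can bind the transcript of another. A probe of Cyp4a10 at mm9 chr4:115198463-115198522 and a probe of Cyp4a31 at chr4:115243923-115243982, both on the plus strand, show how close they are. The probe sequences, from the scanner files, run from 5′ to 3′, and capitals mark the 6 bases of 60 at which they differ.
Cyp4a10: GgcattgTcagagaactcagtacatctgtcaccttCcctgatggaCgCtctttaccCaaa
Cyp4a31: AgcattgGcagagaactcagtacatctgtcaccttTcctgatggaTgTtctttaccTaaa
The brightest probes of these genes overlap over 47 bases with 3 mismatches. The files list the Cyp4a12b transcript also under the probe of Cyp4a12a, the Cyp4a32 transcript under the Cyp4a10 probe shown here, and the Cyp4a10 transcript under a Cyp4a31 probe. Values of Cyp4a10, Cyp4a31 and Cyp4a32, and of Cyp4a12a and Cyp4a12b, are therefore not independent of each other.

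All values are log2 of the processed spot signal relative to the 75th percentile of the array, so a level of 0 is the signal that 75% of probes do not exceed. Replicate 1 of each group lay on slide 1 and replicates 2 and 3 on slide 2, and the 75th percentile was 1131 to 1766 signal units on slide 1 and 3344 to 3906 on slide 2. Of all probes, 47.6% were well above background on Mx-liver replicate 1 and 68.5% or more on each of the other arrays, and 0 spots were saturated. All 10 hepatocyte markers were well above background on every array, and the log2 of their summed signal was 8.89 to 9.32. Of Birc5, the probe at transcript base 269 read -0.23, -1.21 and -1.03 in Mx-liver and -2.68, -2.56 and -2.93 in Mx+tumor. It read -0.33, -2.54 and -3.33 in Mx+liver and -2.03, -0.85 and 0.085 in Mx-tumor, so the arrays labelled Mx+liver replicate 1 and Mx-tumor replicate 1 lay nearer to the other genotype on this probe than the remaining arrays of their groups. The brightest Birc5 probe, at transcript base 3336, read 2.85, 0.51 and 0.76 in Mx-liver and 2.42, -0.10 and -1.07 in Mx+liver. It read 0.80, 0.82 and 1.76 in Mx-tumor and 0.06, 0.17 and -0.085 in Mx+tumor. Across slides Mx-tumor replicate 1 was thus level with replicate 2 and above all Mx+tumor arrays. Within slide 1 this probe read 2.85 in Mx-liver, 2.42 in Mx+liver, 0.80 in Mx-tumor and 0.06 in Mx+tumor. There the Mx+liver array lay nearer to Mx-liver than to Mx+tumor, and the Mx-tumor array nearer to Mx+tumor than to Mx-liver. The third probe, at transcript base 415, read 0.76, 0.25 and 0.29 in Mx-liver and 0.70, -0.84 and -1.49 in Mx+liver. It read -0.57, 0.57 and 1.41 in Mx-tumor and -0.24, -0.61 and -0.99 in Mx+tumor. On the third probe Mx+liver replicate 1 and Mx-tumor replicate 1 again lay nearer to the other genotype than the remaining arrays of their groups. Which part of Birc5 was removed is not given in the sources used here, so this is no full check of the labels. In the deposited value table the columns of these 2 arrays match each other's scanner file. The recorded assignment of the scanner files is used here. For single members, by their brightest probe, results that rest on these arrays are also given with the arrays exchanged or left out. Other probes, counts of members, markers and genes other than the members are given with the recorded assignment only, unless stated.

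No member passed an adjusted p of 0.05 in any of the 5 comparisons made with limma with slide as a block, and the same held for all genes tested, with 0.0% called in each. Counts at an unadjusted p of 0.05 are therefore given as a description. In HCC against liver without Mx-Cre 1 of 10 members (Cyp4a14) lay under that limit, against 6.09% of all genes. All 10 members had a lower mean in Mx-tumor than in Mx-liver, with a median log2 difference of -0.70, where 44.6% of all genes were lower and the median over all genes was 0.041. In HCC against liver with Mx-Cre 0 of 10 lay under the limit, against 4.38% of all genes, and 8 were lower, with a median of -0.27 against -0.042 for all genes. The means of the 10 are averages over few and partly overlapping probes, so these counts do not stand for 10 separate observations.

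For Mx+ against Mx- in HCC 1 of 10 (Cyp4a14) lay under the unadjusted limit, against 7.89% of all genes, and 7 were higher in Mx+tumor, with a median difference of 0.41 against -0.021. For Mx+ against Mx- in liver 1 of 10 (Cyp4f13) lay under it, against 11.8% of all genes, and 8 were lower in Mx+liver, with a median of -0.48 against 0.051. The difference between these effects had 0 of 10 members under the limit, against 3.28% of all genes, with a median of 0.55 against -0.065. These comparisons share arrays: a low Mx-tumor group enters 3 of them.

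**Figure D1:**
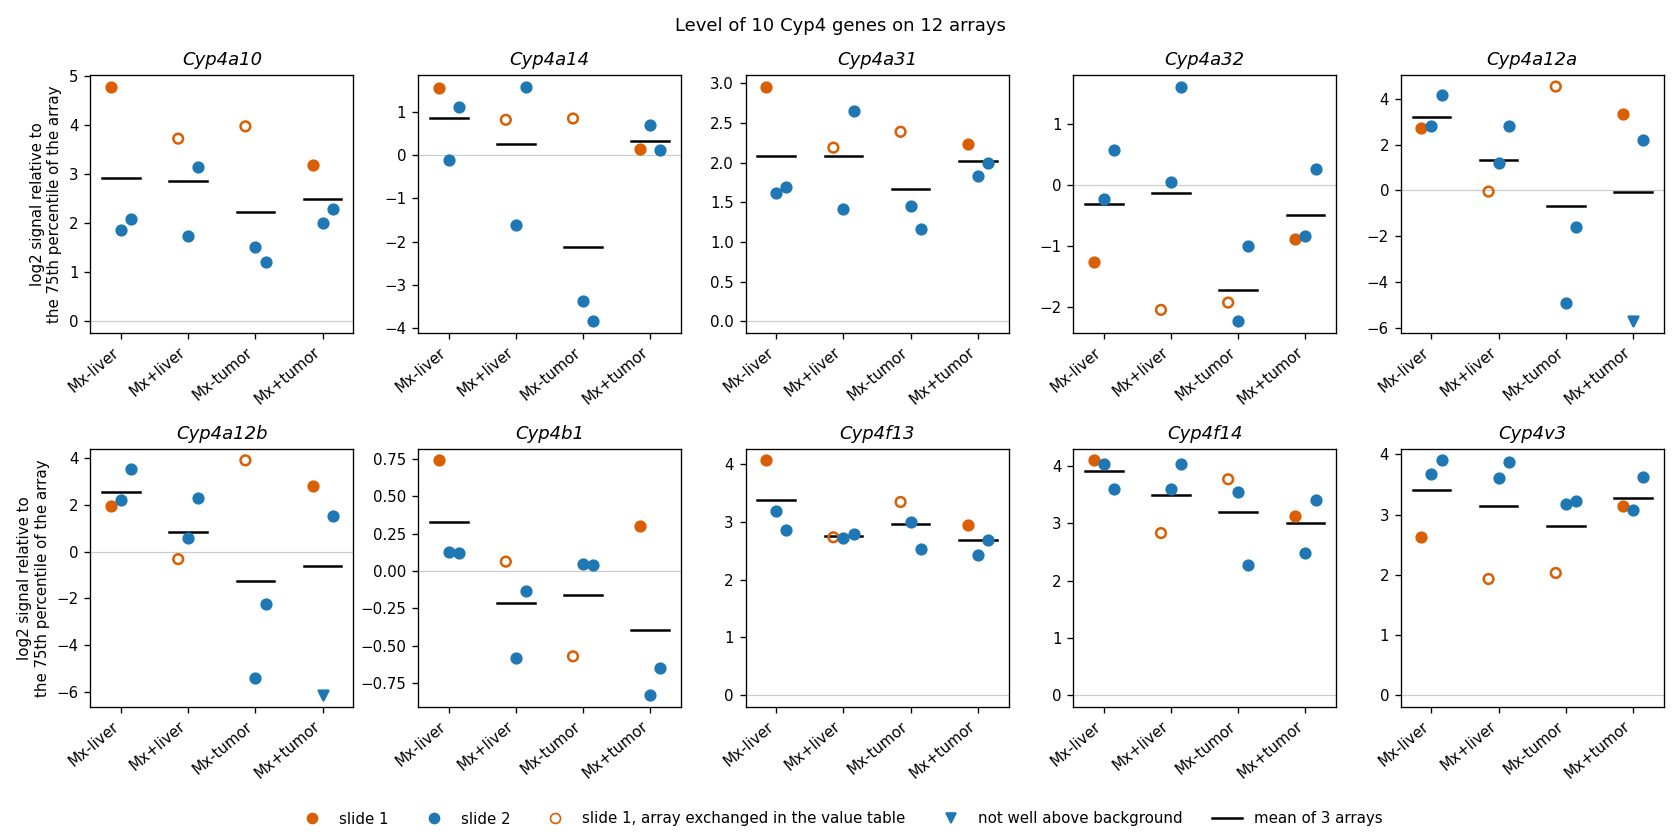
Level of each of the 10 genes (y axis, log2 relative to the 75th percentile of the array; axes differ between genes) in the 4 groups (x axis). Points are arrays, coloured by slide, open circles are the 2 arrays exchanged in the value table, triangles were not well above background, and bars are means of 3 arrays. Cyp4a14 and the Cyp4a12 genes are far lower on Mx-tumor replicates 2 and 3 than on replicate 1.

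Cyp4a14, an omega-hydroxylase strongly induced through PPAR-alpha, had the clearest difference among the 10. Its probe lies at mm9 chr4:115158914-115158973 on the minus strand and was well above background on all 12 arrays. The level was 1.56, -0.10 and 1.12 in Mx-liver and 0.82, -1.61 and 1.59 in Mx+liver, for replicates 1 to 3. In the tumours it was 0.85, -3.38 and -3.85 in Mx-tumor and 0.15, 0.71 and 0.13 in Mx+tumor. Mx-tumor replicates 2 and 3 were the lowest of the 12 arrays, while Mx-tumor replicate 1 lay within the range of Mx-liver. In order of means, Mx-liver was at 0.86 ± 0.86 (SD, n = 3), Mx+tumor at 0.33 ± 0.33, Mx+liver at 0.27 ± 1.67 and Mx-tumor at -2.13 ± 2.59, and the first 3 do not differ beyond their spread.

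The fitted Cyp4a14 difference of Mx-tumor from Mx-liver was -2.98 (SE 1.00), a 7.90-fold lower signal, with limma's unadjusted p = 0.0144 and adjusted p = 0.752. It was -0.71 on slide 1 and -4.12 on slide 2. Mx+tumor lay above Mx-tumor by 2.45 (SE 1.00), with limma's unadjusted p = 0.0351 and adjusted p = 0.619, and here the slides differ in sign, with -0.70 on slide 1 and 4.03 on slide 2. In liver the Mx+ difference was -0.59, with a 95% interval of -2.83 to 1.66. The 2 Mx+ effects differed by 3.04 (SE 1.42), with limma's unadjusted p = 0.0584 and adjusted p = 0.913.

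Both arrays in doubt read nearly the same for Cyp4a14, so exchanging them moved the HCC difference without Mx-Cre only to -2.99. Without both of them it was -4.34, and without Mx-tumor replicate 1 alone -4.29. Without Mx-tumor replicate 2 it was -2.58, and without replicate 3 it was -2.33. The Mx+ effect in HCC was 3.76 without Mx-tumor replicate 1, 3.25 without Mx+tumor replicate 1 and 1.81 without Mx-tumor replicate 3. The limma unadjusted p of the HCC difference reached at most 0.0612 with any 1 array left out, and that of the Mx+ effect in HCC 0.132.

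Cyp4a10, the other strongly PPAR-alpha-induced hydroxylase, has 3 probes. On the brightest, which the files do not place on the genome, the level was 4.78, 1.87 and 2.09 in Mx-liver and 3.72, 1.73 and 3.15 in Mx+liver. It was 3.97, 1.52 and 1.20 in Mx-tumor and 3.19, 2.01 and 2.28 in Mx+tumor. Replicate 1 was the highest array of every group, and the mean was 3.92 on slide 1 and 1.98 on slide 2. Mx-tumor lay below Mx-liver by a fitted -0.69 (SE 0.45), on slide 1 by -0.82 and on slide 2 by -0.62, with limma's unadjusted p = 0.159 and adjusted p = 0.758. The interval of the Mx+ difference was -0.74 to 1.27 in HCC and -1.06 to 0.96 in liver.

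The Cyp4a10 probe whose sequence is shown gave a larger difference in the same comparison. It read 2.81, 0.67 and 1.18 in Mx-liver and 1.32, -0.78 and -0.78 in Mx-tumor. The fitted difference was -1.63 (SE 0.57), with limma's unadjusted p = 0.0173 and adjusted p = 0.754 when each probe was tested on its own. The remaining probe, at chr4:115206150-115206209, gave -0.88 (SE 0.47). All 3 probes were lower in Mx-tumor on both slides, and they disagreed on size.

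Cyp4a31, a close copy of Cyp4a10, likewise differed in size from probe to probe. Its brightest probe, at chr4:115251553-115251612, read 2.96, 1.62 and 1.69 in Mx-liver and 2.39, 1.46 and 1.17 in Mx-tumor, a fitted difference of -0.42 (SE 0.34). Mx+liver read 2.19, 1.42 and 2.65 and Mx+tumor 2.23, 1.83 and 2.00. On this probe the 4 groups overlap. The Cyp4a31 probe shown by sequence read 0.86, 0.62 and 0.99 in Mx-liver and -0.45, -0.53 and -0.85 in Mx-tumor, which do not overlap. Its fitted difference was -1.43 (SE 0.44), with limma's unadjusted p = 0.00906 and adjusted p = 0.754. The same probe read -0.12, -0.017 and 1.78 in Mx+liver and -0.026, -0.36 and 0.39 in Mx+tumor, so its Mx+tumor arrays all lay above its Mx-tumor arrays, by a fitted 0.61 (SE 0.44). With the arrays in doubt exchanged, its Mx-tumor arrays would read -0.12, -0.53 and -0.85. They would then overlap Mx+tumor and still lie below Mx-liver. The third probe, at chr4:115242872-115242931, gave -1.06 (SE 0.54) for Mx-tumor against Mx-liver and -0.14 for Mx+ against Mx- in HCC.

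**Figure D2:**
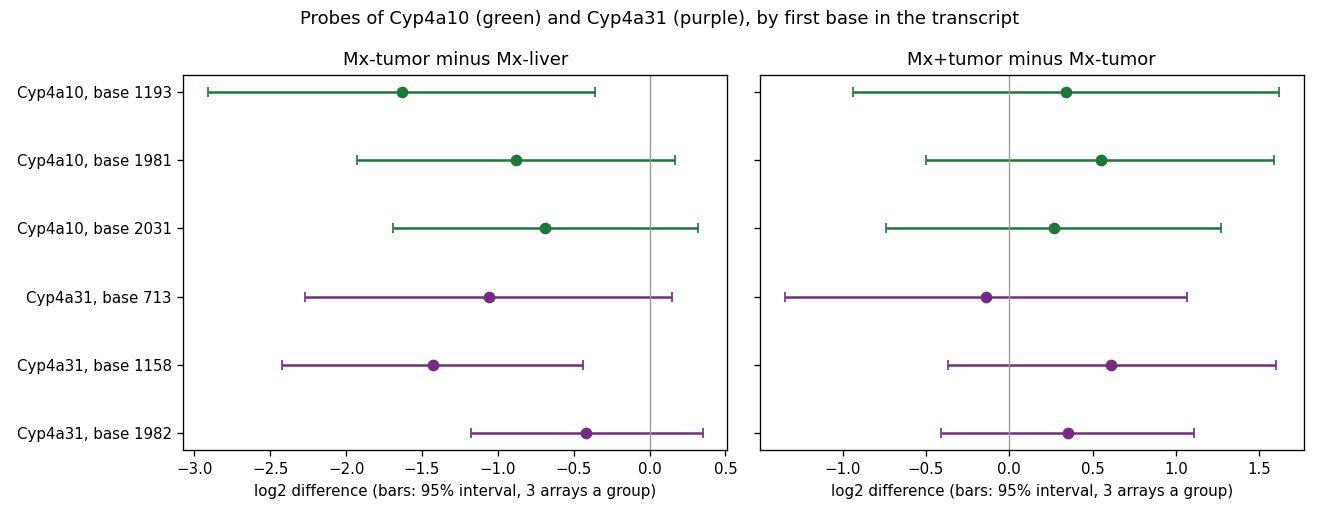
Fitted log2 differences (x axis) of the 3 Cyp4a10 probes and the 3 Cyp4a31 probes, named on the y axis by their first base in the transcript, for Mx-tumor minus Mx-liver and Mx+tumor minus Mx-tumor. Points are slide-blocked estimates and bars 95% intervals. In the first comparison all 6 estimates are below 0, from -1.63 to -0.42, and the probe nearest the transcript end is the smallest in size for both genes.

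Cyp4a32, a further member of the Cyp4a cluster, has 1 probe at mm9 chr4:115294852-115294911. Its level was -1.27, -0.23 and 0.58 in Mx-liver and -2.05, 0.05 and 1.62 in Mx+liver. It was -1.93, -2.24 and -1.0 in Mx-tumor and -0.88, -0.84 and 0.26 in Mx+tumor. Mx-liver and Mx-tumor overlap through Mx-liver replicate 1, and Mx-tumor and Mx+tumor do not overlap. The HCC difference without Mx-Cre was -1.41 (SE 0.63), with limma's unadjusted p = 0.0504 and adjusted p = 0.752. The Mx+ difference in HCC was 1.23 (SE 0.63), 1.05 on slide 1 and 1.33 on slide 2, with limma's unadjusted p = 0.0808 and adjusted p = 0.658. The groups of this gene alone among the 10 were separated in that comparison, against 5.65% of all genes. With the replicate number as the block in place of slide the unadjusted p values were 0.0177 and 0.0322, still with adjusted p of 0.792 and 0.638 in limma.

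Cyp4a12a and Cyp4a12b, the hydroxylases of male mouse liver and kidney that turn arachidonic acid into a vasoactive eicosanoid, varied most. The Cyp4a12a probe, at mm9 chr4:115005258-115005317, read 2.71, 2.79 and 4.14 in Mx-liver and -0.049, 1.19 and 2.81 in Mx+liver. It read 4.53, -4.90 and -1.60 in Mx-tumor and 3.34, -5.71 and 2.20 in Mx+tumor. The highest and the second lowest of the 12 arrays are both Mx-tumor arrays. On Mx+tumor replicate 2 the probe was not well above background, and on the other 11 arrays it was.

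For Cyp4a12a the fitted difference of Mx-tumor from Mx-liver was -3.87 (SE 2.38), with a 95% interval of -9.20 to 1.45, limma's unadjusted p = 0.136 and adjusted p = 0.752. It was 1.82 on slide 1 and -6.72 on slide 2, so the slides differ in sign. With Mx-Cre the difference of tumour from liver was 3.39 on slide 1 and -3.76 on slide 2. Mx+ against Mx- gave 0.60 (SE 2.38) in HCC and -1.90 (SE 2.38) in liver, and these intervals span from -7.22 to 5.92.

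The arrays in doubt matter for Cyp4a12a, since they read -0.049 and 4.53. Exchanged as in the value table, Mx-tumor would hold -0.049, -4.90 and -1.60 and no longer overlap Mx-liver. The difference would then be -5.40 (SE 1.87), with limma's unadjusted p = 0.0163 and adjusted p = 0.424, and without both arrays it was -5.74, with limma's unadjusted p = 0.0545. The exchange also moved the HCC difference with Mx-Cre to -2.90 (SE 1.87), and Mx+ against Mx- to 2.13 in HCC and -0.37 in liver. On slide 1 Mx-tumor would then read -0.049 against 2.71 in Mx-liver, and Mx+tumor 3.34 against 4.53 in Mx+liver. The tumour would be the lower of each pair, as on slide 2. For HCC against liver without Mx-Cre, leaving out Mx-tumor replicate 1 gave -6.21, Mx-liver replicate 1 -5.33, Mx-liver replicate 3 -2.93 and Mx-tumor replicate 2 -2.06.

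Cyp4a12b, whose probe lies at chr4:115111580-115111639, ran along with Cyp4a12a on every array. It read 1.95, 2.21 and 3.56 in Mx-liver, -0.32, 0.58 and 2.30 in Mx+liver, 3.92, -5.43 and -2.26 in Mx-tumor, and 2.83, -6.16 and 1.53 in Mx+tumor. Over the 12 arrays with slide means removed the 2 probes correlated at r = 0.999, and the files list the transcript of Cyp4a12b under both.

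Cyp4b1 has its probe at mm9 chr4:115297406-115297465 on the minus strand, next to Cyp4a32. Its level was 0.74, 0.13 and 0.12 in Mx-liver and 0.063, -0.58 and -0.13 in Mx+liver. It was -0.57, 0.05 and 0.04 in Mx-tumor and 0.30, -0.83 and -0.65 in Mx+tumor. Its Mx-liver arrays were all above those of Mx+liver and Mx-tumor, although on slide 2 Mx-tumor differed from Mx-liver by only -0.083. Groups did not overlap for 1 of 10 members in HCC against liver without Mx-Cre, which is this gene, against 7.18% of all genes, and for 0 of 10 with Mx-Cre, against 4.53%. The difference of Mx+liver from Mx-liver was -0.54 (SE 0.30), with limma's unadjusted p = 0.106 and adjusted p = 0.469. With the arrays in doubt exchanged it was -0.76, with limma's unadjusted p = 0.0170 and adjusted p = 0.535. The HCC difference without Mx-Cre, -0.49 (SE 0.30), became -0.28 with the arrays exchanged and -0.012 without both of them. In HCC the Mx+ difference was 0.87 on slide 1 and -0.78 on slide 2, and on slide 2 alone limma's adjusted p was 0.139, the smallest of any member under any setting tried. The lung club cell markers, 4 genes, did not pass the filter on dim probes in any group.

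Cyp4f13 and Cyp4f14, members of the CYP4F subfamily, lie close together on chromosome 17. The Cyp4f13 probe spans 33062503 to 33062650 of mm9 chromosome 17 on the minus strand, which is longer than the probe. It read 4.06, 3.19 and 2.85 in Mx-liver and 2.73, 2.72 and 2.79 in Mx+liver. It read 3.34, 3.00 and 2.52 in Mx-tumor and 2.95, 2.42 and 2.69 in Mx+tumor. The 3 Mx+liver arrays were almost level with each other and below every Mx-liver array.

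Mx+liver lay below Mx-liver for Cyp4f13 by a fitted -0.62 (SE 0.24), 1.54-fold, with limma's unadjusted p = 0.0279 and adjusted p = 0.416. The difference was -1.33 on slide 1 and -0.27 on slide 2. Of the 10 members 2 had separated groups in that comparison, Cyp4f13 and Cyp4b1, against 9.59% of all genes. The size rests on Mx-liver replicate 1, without which it was -0.38, and on Mx+liver replicate 1, 1 of the arrays in doubt, without which it was -0.39. With the arrays exchanged the Mx-liver and Mx+liver arrays of Cyp4f13 overlap and the difference was -0.42, with limma's unadjusted p = 0.111. With the recorded assignment limma's unadjusted p was 0.260 on slide 2 alone (difference -0.27) and 0.103 without the slide block (difference -0.62). Under the exchange the HCC difference without Mx-Cre went from -0.42 to -0.62, with limma's unadjusted p = 0.0283 and adjusted p = 0.425. Markers of hepatocytes moved with this comparison. Of the 10, 8 were lower in Mx+liver, with a median of -0.27, and Alb and Serpina1a, which encode abundant plasma proteins, were lower by -0.54 and -0.67 without passing the adjusted test. Their part in the result was not tested.

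Cyp4f14, which hydroxylates leukotriene B4, has its probe at mm9 chr17:33042214-33042273 on the minus strand. Its level was 4.10, 4.03 and 3.60 in Mx-liver and 2.83, 3.60 and 4.03 in Mx+liver. It was 3.77, 3.54 and 2.28 in Mx-tumor and 3.12, 2.49 and 3.41 in Mx+tumor. In each of the 4 comparisons its groups overlap. The HCC difference was -0.71 (SE 0.44) without Mx-Cre and -0.48 (SE 0.44) with it, with intervals of -1.70 to 0.27 and -1.47 to 0.50. With the arrays in doubt exchanged these became -1.02 and -0.80, with limma's unadjusted p of 0.0136 and 0.0424 and adjusted p of 0.424 and 0.726, and in both comparisons the groups no longer overlapped.

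Cyp4v3, whose probe lies at mm9 chr8:46391395-46391454 on the minus strand, read nearly alike on slide 2 in both liver groups. Its level was 2.63, 3.68 and 3.90 in Mx-liver, 1.93, 3.60 and 3.88 in Mx+liver, 2.03, 3.17 and 3.22 in Mx-tumor, and 3.14, 3.08 and 3.62 in Mx+tumor. Replicate 1 was low except in Mx+tumor. Mx-tumor lay below Mx-liver by -0.60 on slide 1 and -0.59 on slide 2, a fitted -0.59 (SE 0.30), with limma's unadjusted p = 0.0778 and adjusted p = 0.752.

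**Figure D3:**
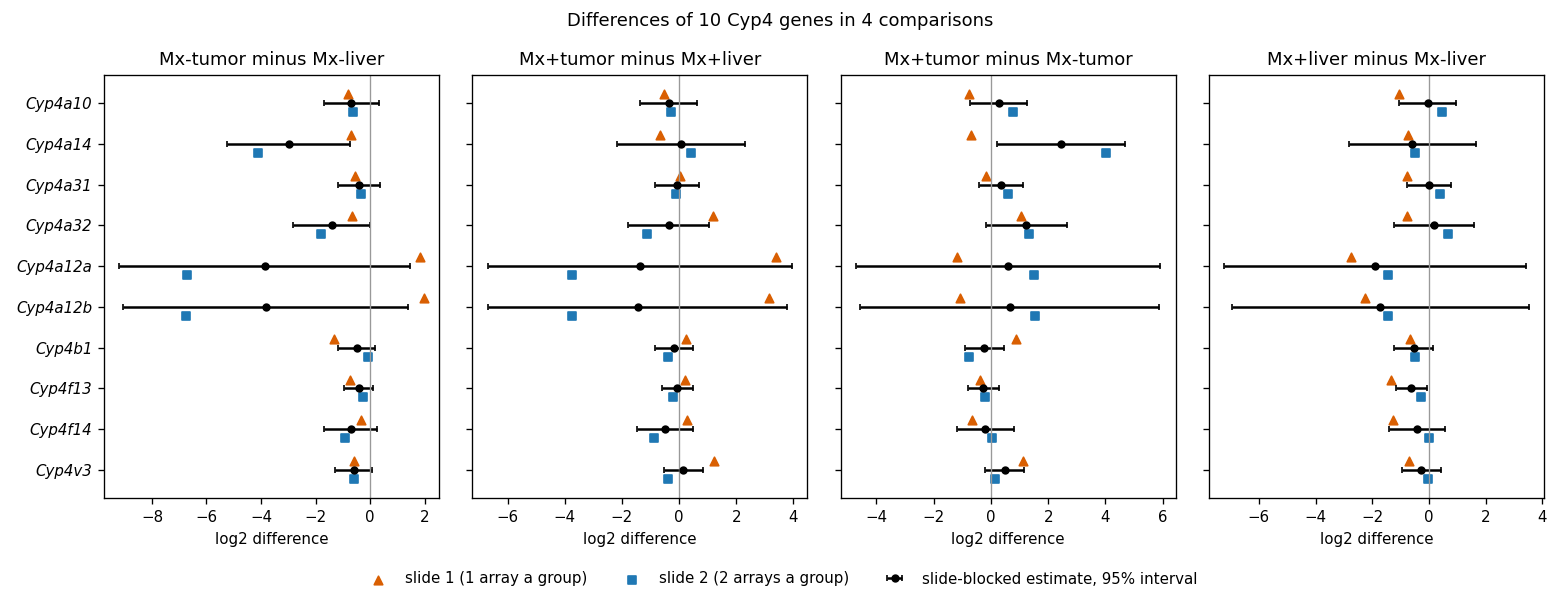
Log2 differences (x axis) of the 10 genes (y axis) in 4 comparisons. Black points are slide-blocked estimates with 95% intervals, triangles the difference on slide 1 and squares the mean difference on slide 2. In Mx-tumor minus Mx-liver all 10 estimates are below 0, and for Cyp4a12a and Cyp4a12b the slides lie on opposite sides of 0, at 1.82 and -6.72 for Cyp4a12a. This holds with the recorded assignment only: with the 2 arrays in doubt exchanged, both slides would lie below 0 for these 2 genes.

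In HCC against liver without Mx-Cre 9 of 10 members had separated groups on slide 2, all but Cyp4f13, where 43.7% of all genes did. For Mx+ against Mx- in HCC 5 did, against 49.7%, and for the other comparisons 3 and 2 did, against 40.7% and 49.6%. With 2 arrays a group such a separation is common for any gene. Immune markers differed between groups too. Of the 7 T and NK cell markers the summed signal, as log2, was 0.72 to 2.22 in Mx-tumor. In Mx+tumor it was 2.03 to 3.17. All 7 had a higher mean in Mx+tumor, with a median difference of 1.09 and 0 past the adjusted limit. On slide 1 the summed signal was not higher, at 2.22 in Mx-tumor and 2.13 in Mx+tumor. That Mx-tumor array is in doubt, and the Mx+liver array in doubt was at 3.36. In Mx-tumor against Mx-liver all 6 macrophage markers were lower, with a median of -0.51. All 6 neutrophil (median -0.59), all 6 endothelial (-0.35) and all 5 B and plasma cell markers (-0.96) were lower too. Lower there were also 6 of 7 T and NK cell (-0.54) and 6 of 10 hepatocyte markers (-0.054). Higher were 4 of 5 measured cholangiocyte markers (0.38). Of the 6 stellate cell markers in the same comparison 5 were lower, with a median of -0.16. Among them Lrat, which esterifies retinol, lay lower by -1.61 (SE 0.40), with limma's unadjusted p = 0.00244 and no overlap of the groups, and the matrix protein Dcn by -0.98 (SE 0.37). The summed signal of the 3 adipocyte markers measured, of 4, was 0.34 to 2.80 as log2 on 11 arrays. It was 5.74 on Mx+liver replicate 3. Cyp4a14 and Cyp4a32 had their highest level on that array. In RNA from whole tissue fewer cells of a type and less RNA per cell cannot be told apart, and the part of these markers in the Cyp4 values was not tested.

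Lists of related genes, written down with earlier results of these data known, place the 10 members beside their pathway. No gene of any list passed the adjusted limit in limma, and the genes named are taken from the 2 of smallest p in a list and comparison. Of 28 PPAR-alpha target genes other than the members 21 were lower in Mx-tumor than in Mx-liver, with a median of -0.19 against 0.041 for all genes, and 4 were lower and 1 higher at an unadjusted p of 0.05, against 6.09% of all genes in either direction. The 1 higher is Fgf21, a hormone of the liver induced through PPAR-alpha, which read -5.25, -5.31 and -5.65 in Mx-liver and -4.29, -2.60 and -1.40 in Mx-tumor. It read -5.39, -7.37 and -6.72 in Mx+liver and -2.60, -3.36 and -6.37 in Mx+tumor, and was well above background on 1 of 3 arrays of each liver group, all of Mx-tumor and 2 of 3 of Mx+tumor. Its tumour arrays were thus the higher ones except for Mx+tumor replicate 3, and the fitted difference from liver was 2.64 without and 2.38 with Mx-Cre (SE 0.98 for both), with limma's unadjusted p of 0.0227 and 0.0356. Fgf21 passed the filter on dim probes through Mx-tumor alone, where it is high. Most of its liver readings were not well above background, so the sizes are uncertain and the p-values are a description only. Acot1, a thioesterase that frees fatty acids from acyl-CoA, read 3.08, 0.80 and 1.39 in Mx-liver and 1.98, -0.91 and -1.54 in Mx-tumor. It read 2.91, 0.90 and 1.10 in Mx+liver and 1.97, 1.98 and 1.65 in Mx+tumor, so Mx-tumor replicates 2 and 3 were the lowest arrays, as for Cyp4a14. The Acot1 difference was -1.91 (SE 0.51) between Mx-tumor and Mx-liver and 2.03 (SE 0.51) between Mx+tumor and Mx-tumor, the latter -0.0079 on slide 1 and 3.04 on slide 2. The list as a whole did not rise in Mx+tumor against Mx-tumor, with 14 genes higher, 14 lower and a median of -0.061. At an unadjusted p of 0.05 in limma 1 was higher there, which is Acot1, and 4 were lower, against 7.89% of all genes. Cd36, a fatty acid importer, lay lower in the tumours of both genotypes, by -1.20 (SE 0.40) without Mx-Cre and -1.03 (SE 0.40) with it. Fabp1, the liver fatty acid binding protein, lay lower with Mx-Cre by -0.62 in HCC and -0.63 in liver (SE 0.22 for both).

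Of the regulators, Ppara was at -0.19 (SE 0.21) in Mx-tumor against Mx-liver and -0.52 (SE 0.21) in Mx+liver against Mx-liver, and its partner receptor Rxra at 0.28 and 0.44 (SE 0.26 for both). In Mx+tumor against Mx-tumor Ppara was at -0.40 (SE 0.21) and Rxra at 0.15 (SE 0.26). Of the 17 regulators 13 were lower in Mx-tumor than in Mx-liver, with a median of -0.19. The constitutive androstane receptor Nr1i3 lay lower by -0.96 (SE 0.34) in that comparison, with -0.92 on slide 1 and -0.97 on slide 2. Cux2, a transcription factor of female liver that represses male-biased genes, was higher in Mx+tumor than in Mx-tumor by 2.18 (SE 0.93), from -0.43 on slide 1 and 3.49 on slide 2.

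Partner enzymes of omega-oxidation were lower in Mx-tumor for 17 of 23 genes, with a median of -0.091, and in Mx+tumor against Mx+liver for 12 of 23, with a median of -0.003. Por, the electron donor of every microsomal P450, lay lower in Mx-tumor than in Mx-liver by -0.66 (SE 0.23), with -0.60 on slide 1 and -0.69 on slide 2 and limma's unadjusted p = 0.0150. Hsd17b4, a peroxisomal enzyme that shortens dicarboxylic acids, lay lower by -0.89 (SE 0.31), with -2.00 on slide 1 and -0.33 on slide 2, and its groups did not overlap. Among 14 measured eicosanoid genes 10 were lower in Mx-tumor, with a median of -0.37. The epoxygenase Cyp2c29 lay lower by -0.74 (SE 0.20) and the cyclooxygenase Ptgs1 by -0.73 (SE 0.22), both without overlap of the groups.

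Other Cyp4 genes of the array number 10, of which 8 passed the filter, and 4 of the 8 were lower in Mx-tumor than in Mx-liver. Their median difference there was 0.036, close to that of all genes. Cyp4f16 was at its highest in the tumours with Mx-Cre. It read 1.92, 1.73 and 1.24 in Mx+tumor, above all 9 arrays of the other groups, which ran from 0.78 to 1.16. Its difference was 0.58 (SE 0.19) from Mx+liver and 0.53 (SE 0.19) from Mx-tumor, with limma's unadjusted p of 0.0122 and 0.0202.

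Sex-biased liver genes were listed because of Cyp4a12a. Of 10 measured male-biased genes 8 were lower in Mx-tumor than in Mx-liver, with a median of -0.56, and of 14 measured female-biased genes 12 were lower, with a median of -0.57. Cyp7b1, an oxysterol hydroxylase higher in males, read 0.12 and -0.038 on Mx-tumor replicates 2 and 3, 0.57 on Mx+tumor replicate 2, and 2.06 to 3.72 on the other 9 arrays. The 3 arrays low for Cyp7b1 are those on which Cyp4a12a was lowest. For Mx+ against Mx- in HCC the sulfotransferases Sult3a1 and Sult1e1, both higher in females, lay higher by 4.23 (SE 1.11) and 2.34 (SE 0.74), without overlap of the groups and without passing the adjusted test.

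The genes whose pattern over the 12 arrays was most like a member were ranked by Pearson's r after slide means were removed. These are descriptions over arrays that share a slide and a tissue. For Cyp4a12a they were Pax2 (0.953), Susd4 (0.927) and Ngfr (0.926), and for Cyp4a14 Pon1 (0.925), Iglon5 (0.916) and Pdxk (0.907). Susd4, a further male-biased gene, read -3.49, -3.51 and -4.57 on Mx-tumor replicates 2 and 3 and Mx+tumor replicate 2, against -0.19 to 2.15 on the other 9 arrays. Cyp4a10 was most like Mogat1 (0.937), an acyltransferase of triglyceride synthesis, Cyp4f14 most like Nat1 (0.956) and Cyp4f13 most like Ctdspl2 (0.974).

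**Figure D4:**
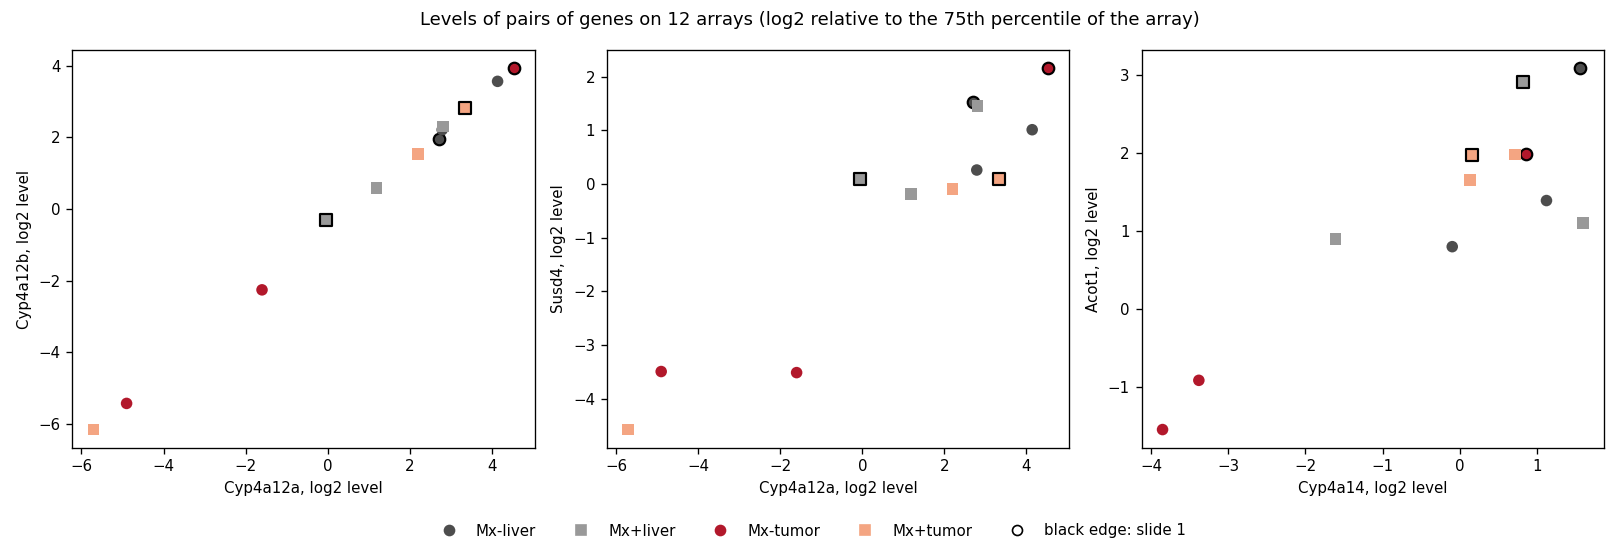
Levels on the 12 arrays (both axes log2 relative to the 75th percentile of the array) of Cyp4a12b and of Susd4 against Cyp4a12a, and of Acot1 against Cyp4a14. Shape and colour give the group, and a black edge marks slide 1. The 3 arrays lowest in Cyp4a12a are also the lowest in Susd4, and Mx-tumor replicates 2 and 3 are lowest in both Cyp4a14 and Acot1. Susd4 is 1 of the 3 genes most like Cyp4a12a over these arrays, so its shared low arrays follow from that choice.

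Among the members themselves, each by its brightest probe, the closest pairs were Cyp4a12a with Cyp4a12b and Cyp4a10 with Cyp4a31 (r = 0.953). The Cyp4a12 probes share a listed transcript. The correlated Cyp4a10 and Cyp4a31 probes share none, but they overlap over 47 bases with 3 mismatches. Cyp4a10 and Cyp4a32 correlated at r = 0.595, and the probe listed for both is not the one correlated here. Cyp4f13 and Cyp4f14 correlated at r = 0.787 and Cyp4a10 and Cyp4a14 at r = 0.769. Cyp4a14 and Cyp4a12a, members with large tumour differences, correlated at r = 0.452. On Mx+tumor replicate 2 Cyp4a12a was at its lowest level while Cyp4a14 read 0.71, the highest of its group. Cyp4b1 ran least with the others, with r from -0.137 to 0.508.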

How the data were processed

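The authors' scanner files give the processed intensity of each spot from Agilent Feature Extraction, version 10.7 per the submitters' processing notes. As to its settings, per the file headers, detrending was on, separate background correction was off and dim spots hold surrogates. A deposited value table, on a log2 scale with the 75th percentile set to 0 by the authors, served as an alternative. Flags (other values of the deposited files) marked outlier spots, which were left out. Spots of a probe were averaged after log2, each array's 75th percentile was taken off, and a probe stayed in if any group had it well above background on all 3 arrays (39136 of 55681). The probe of highest mean stood for a gene. limma 3.58.1 in R 4.3.3 fitted 4 group means and slide over the 12 arrays, with 7 residual degrees of freedom and Benjamini-Hochberg adjustment over 26506 genes. The number of arrays limits the precision. The fit was also tested on simulated data drawn with the residual spread of the measured genes.

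The 10 members, the 7 gene lists and the 10 marker lists were chosen with earlier results of these data known. Named are all members, Ppara, Rxra, Por and Birc5, genes from the 2 of smallest p per list and comparison, and from the 3 genes most like a member, of which the text gives a selection and 1 is not reported here. Over all pairs of groups, same-numbered arrays deviated from their group means together (r from 0.279 to 0.737 in 18 pairs), so the numbers were taken to pair arrays, through the slide: within slide 2 the r were -0.0908 to 0.284. Alternatives were no block, the replicate number or a random slide as the block, slide 2 alone, 1 array or both arrays in doubt left out, these exchanged, only the groups compared, quantile normalization, normexp with an offset of 50, other filters and probe rules, robust variances and the value table. Genome positions are those of the files (mm9), and later RefSeq tables gave symbols only.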

Additional observations from a re-analysis of the deposited data

How the results depend on the processing

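In 27 alternative fits, no member passed the adjusted limit in any comparison, and the smallest adjusted p of a member was 0.139. Of 1330 recomputed member differences 65 changed sign, none of them in HCC against liver without Mx-Cre. Over all genes the count past the adjusted limit went from 0 to at most 2, among them 1 in each Mx+ comparison on slide 2 alone and 2 in HCC without both arrays in doubt. With the replicate block in place of slide the count of members stayed 0, with -2.98 for Cyp4a14 in HCC against liver without Mx-Cre, and this block changed no call at the adjusted limit. At an unadjusted p of 0.05 it moved the count from 1 to 2 of 10, with Cyp4a32 added, in HCC against liver without Mx-Cre and in Mx+ against Mx- in HCC.

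In the fits other than those that left out 1 array, the signs that changed for HCC against liver with Mx-Cre were those of Cyp4a14 under quantile normalization (-0.0096), Cyp4b1 with the arrays exchanged (0.032) or the value table (0.04), Cyp4f13 under normexp (0.068), and Cyp4v3 on slide 2 alone (-0.38) or without both arrays in doubt (-0.23). For Mx+ against Mx- in HCC Cyp4f14 changed, with the arrays exchanged (0.12), the value table (0.12), slide 2 alone (0.033) or without both arrays in doubt (0.014). For Mx+ against Mx- in liver Cyp4a10 did with the arrays exchanged (0.032), the value table (0.023), normexp (0.032), quantile normalization (0.093), slide 2 alone (0.46) or without both arrays in doubt (0.17). There Cyp4a31 did with the mean of all probes (-0.25) or normexp (-0.021), Cyp4a32 under quantile normalization (-0.0011), Cyp4f14 on slide 2 alone (0.0012) and Cyp4v3 without both arrays in doubt (0.11). In the difference of the Mx+ effects Cyp4b1 did on slide 2 alone (-0.30) and without both arrays in doubt (-0.30). The cause was not tested.

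With each array left out in turn, differences of HCC from liver with Mx-Cre ran from -0.66 to 0.12 for Cyp4a10, -3.40 to 1.19 for Cyp4a12a, -3.37 to 1.06 for Cyp4a12b, -0.67 to 1.04 for Cyp4a14, -0.32 to 0.36 for Cyp4a31, -1.06 to 0.34 for Cyp4a32, -0.29 to 0.054 for Cyp4f13 and -0.24 to 0.45 for Cyp4v3. Those of Mx+ against Mx- in HCC ran from -1.22 to 3.17 for Cyp4a12a, -1.11 to 3.17 for Cyp4a12b and -0.67 to 0.15 for Cyp4f14. In liver they ran from -0.55 to 0.34 for Cyp4a10, -3.35 to 0.13 for Cyp4a12a, -3.27 to 0.20 for Cyp4a12b, -1.57 to 0.14 for Cyp4a14, -0.43 to 0.26 for Cyp4a31, -0.52 to 0.88 for Cyp4a32, -0.73 to 0.051 for Cyp4f14 and -0.47 to 0.055 for Cyp4v3. The differences of the Mx+ effects ran from -0.069 to 0.81 for Cyp4a10, -0.12 to 0.49 for Cyp4b1 and -0.25 to 0.57 for Cyp4f14.

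Of the members, Cyp4a12a and Cyp4a12b were not well above background on Mx+tumor replicate 2, so their levels there are uncertain.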
